A study of Mus musculus with 9 samples.

Results

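Brain RNA of mice treated with Laminaria after intracerebral hemorrhage (ICH) was compared with brain RNA of mice given only its vehicle after ICH. The comparison holds every gene whose FPKM (fragments per kilobase of transcript, scaled to the library's depth) averaged 0.5 or more over the 6 libraries of both groups, which were 16654 of the 55401 genes listed. The 6 libraries, 3 in each group, were part of a series of 9, and the other 3 were from sham mice. All mice were wildtype and are described in the methods of the study as adult male C57BL mice, and the tissue is labelled as brain, basal ganglia. ICH was made by injecting autologous whole blood into the right basal ganglia, and sham mice had the needle inserted without blood. The vehicle and sham libraries are labelled day 3, whereas Laminaria 1, 2 and 3 are labelled day 4, day 5 and day 6. Treatment and day therefore cannot be told apart in any value given here, and each Laminaria library stands alone at its day. These days rise by 1 with the library number, and whether they are true sampling days could not be checked. The labels and the methods give no dose, route or start of the Laminaria treatment. The methods describe no Laminaria group but one given Leukadherin-1 (LA-1), an agonist of the complement receptor CR3, and whether the label stands for that agent is not known. Neither the labels nor the methods say that each library was from a separate mouse, so p-values rest on the spread between libraries, which may be technical.

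Blood that enters brain tissue is broken down over days, and hemoglobin and heme from lysed red cells are taken up by microglia and infiltrating macrophages, which carry them into heme degradation and iron storage. Complement is activated around the hematoma, where C1q starts the classical pathway and C3 fragments are bound by complement receptor 3 (CR3), a pair of integrin chains on microglia and macrophages. Interferons, chemokines and antigen presentation by MHC class II molecules are other parts of the response of these cells. Laminaria is a genus of brown seaweeds.

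Total counts were 55701314 to 74649716 in the vehicle group and 51307799 to 63933064 in the Laminaria group. Levels are CPM (counts brought to the same library size by TMM scaling), and differences are given as the log2 fold change of Laminaria minus vehicle. The share of mitochondrially encoded genes was 6.01% to 7.32% over the 9 libraries. Hemoglobin genes took 0.00328%, 0.0142% and 0.00274% in vehicle 1, 2 and 3, and 0.00745%, 0.00237% and 0.00396% in Laminaria 1, 2 and 3. Markers of striatal medium spiny neurons, the main neurons of the striatum, were present in every library, with 61.9 to 168 CPM for the dopamine receptor gene Drd1. In a principal component analysis of the 6 ICH libraries, the first component held 38.5% of the variance and did not separate the groups. Its scores were -18, 30.8 and 18.6 in vehicle 1, 2 and 3, and -24.8, -29.1 and 22.5 in Laminaria 1, 2 and 3. Vehicle 1 thus lay with Laminaria 1 and 2 on this component, and Laminaria 3 with vehicle 2 and 3.

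**Figure D1:**
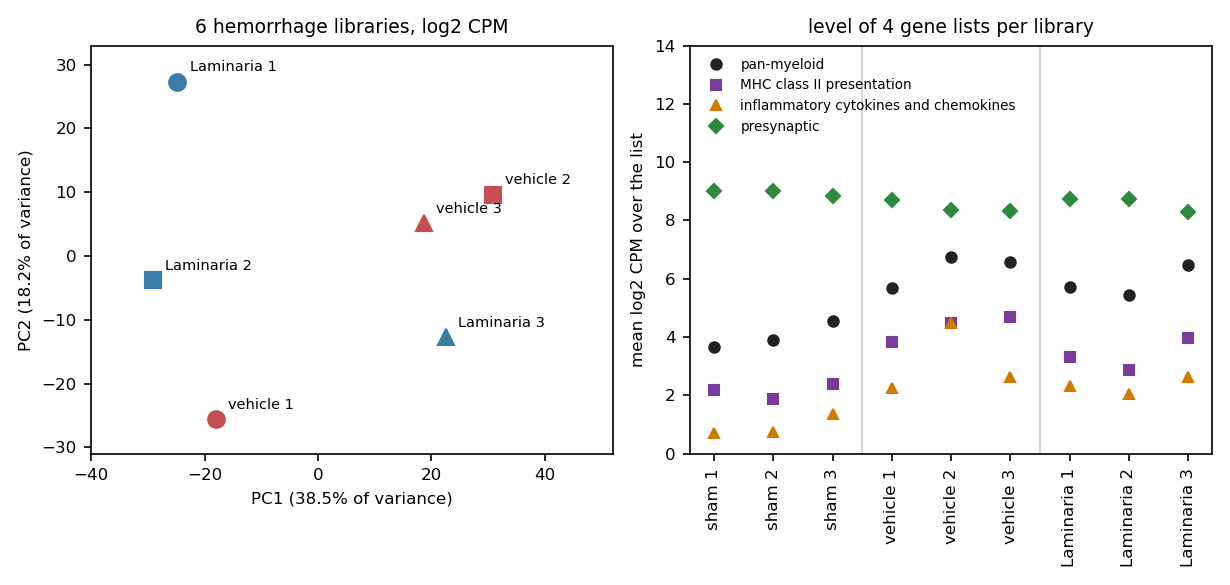
The left panel plots the first against the second principal component of the 6 ICH libraries, with vehicle in red and Laminaria in blue, and the right panel plots the mean log2 CPM of 4 gene lists in each of the 9 libraries. On the first component vehicle 1 (-18) lies beside Laminaria 1 and 2 (-24.8 and -29.1), and the pan-myeloid list is at 5.69 in vehicle 1, 5.70 in Laminaria 1 and 6.46 in Laminaria 3.

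Over all genes 1 gene was higher and 2 genes were lower after Laminaria at an adjusted p under 0.05 (edgeR's quasi-likelihood test with Benjamini-Hochberg adjustment), which are 0.00600% and 0.0120% of the 16654 genes tested and together 0.0180%. The 3 genes were Zfp180, which encodes a zinc finger protein, Pde6d, whose product carries prenylated proteins to membranes and the primary cilium, and Aurkaip1, which encodes a subunit of the mitochondrial ribosome. At an unadjusted p under 0.05 there were 285 genes higher (1.71%) and 275 lower (1.65%), together 3.36% of those tested. The groups did not overlap for 711 genes higher (4.27%) and 787 genes lower (4.73%), together 8.99% of the genes tested. Without any difference between the groups, many genes would still separate in this way or reach an unadjusted p under 0.05. With 3 libraries in each group a lack of overlap is therefore only a description, here and below. The median log2 fold change of all genes was -0.002, its SD over genes was 0.43, and 380 genes differed by more than 1 on the log2 scale.

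Zfp180 (ENSMUSG00000057101) lies on the plus strand of chromosome 7 from 24081924 to 24107713 in GRCm38. Its level was 6.87, 6.96 and 6.80 CPM in vehicle 1, 2 and 3, and 70.4, 63.3 and 41.6 CPM in Laminaria 1, 2 and 3. The vehicle libraries were nearly equal and all 3 Laminaria libraries lay far above them. Zfp180 rose by 3.09 on the log2 scale (standard error, SE, 0.21, edgeR adjusted p = 0.0398). The sham libraries had 70.1, 12.6 and 10.2 CPM, so that sham 1 was at the level of the Laminaria libraries and sham 2 and 3 were nearer the vehicle libraries. The gene belongs to a large family with similar zinc finger repeats, among which reads may be shared.

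Pde6d (ENSMUSG00000026239), on the minus strand of chromosome 1 from 86542994 to 86582547, had 48.6, 50.6 and 50.3 CPM in vehicle 1, 2 and 3. It had 16.8, 19.5 and 16.0 CPM in Laminaria 1, 2 and 3. Pde6d fell by 1.51 on the log2 scale (SE 0.11, edgeR adjusted p = 0.0398), with no overlap between the groups. The sham libraries had 20.4, 42.4 and 40.7 CPM, of which sham 1 was again close to the Laminaria level. A predicted gene on the opposite strand, Gm37152, overlaps Pde6d and took 18 counts over the 6 libraries.

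Aurkaip1 (ENSMUSG00000065990), on the plus strand of chromosome 4 from 155831272 to 155833130, had 47.2, 51.5 and 51.4 CPM in vehicle 1, 2 and 3 and 20.9, 21.7 and 23.1 CPM in Laminaria 1, 2 and 3. It fell by 1.19 on the log2 scale (SE 0.09, edgeR adjusted p = 0.0398), and here too the groups did not overlap. In sham 1, 2 and 3 Aurkaip1 had 23.1, 32.5 and 36.5 CPM, so that sham 1 was at the level of Laminaria 3 and sham 2 and 3 lay between both ICH groups. Without any 1 library the log2 fold change was 2.94 to 3.28 for Zfp180, -1.59 to -1.45 for Pde6d and -1.23 to -1.15 for Aurkaip1. No gene passed edgeR's test without vehicle 1, 2 or 3 or without Laminaria 1 or 2, and without Laminaria 3 Zfp180 alone passed (adjusted p = 0.00292).

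**Figure D2:**
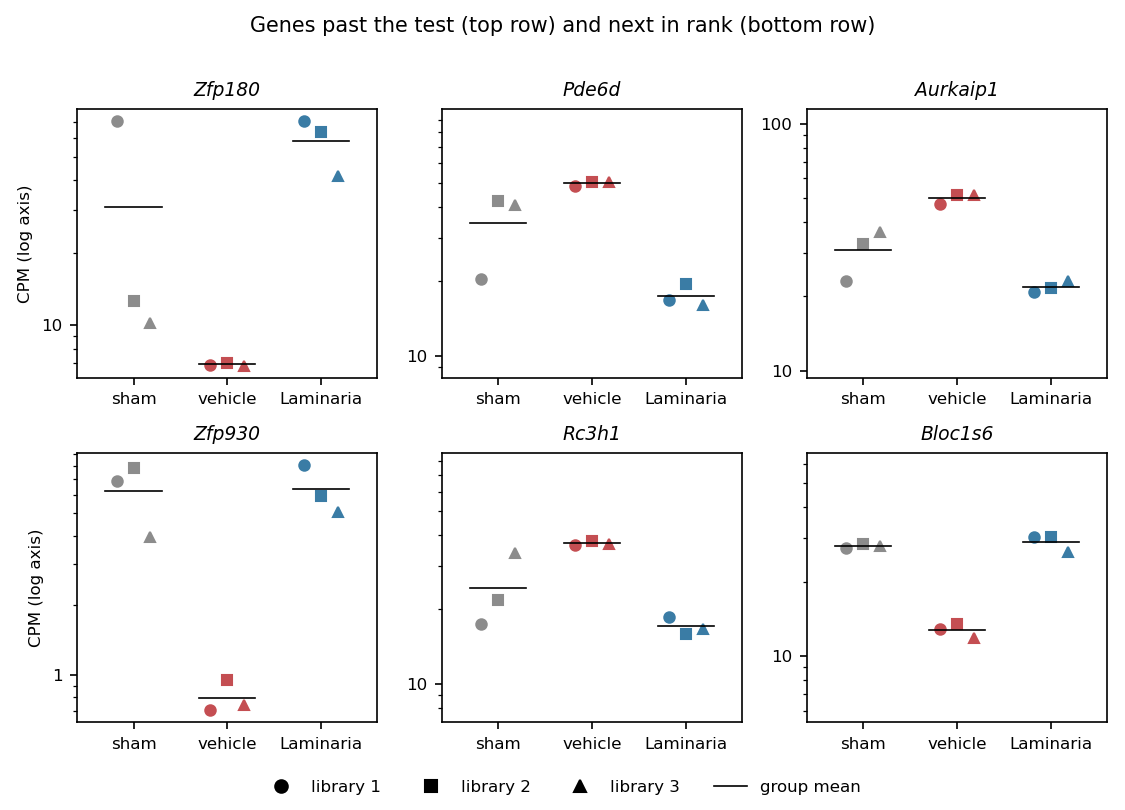
Each panel plots the CPM of a gene on a log axis in the 3 sham (grey), 3 ICH vehicle (red) and 3 ICH Laminaria (blue) libraries, with a line at the group mean. Zfp180, Pde6d and Aurkaip1 passed the test, and the vehicle libraries of Zfp180 lie between 6.80 and 6.96 CPM whereas its sham libraries reach from 10.2 to 70.1 CPM.

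Next in rank were genes that missed the threshold but whose groups did not overlap. Zfp930, another zinc finger gene, had 0.71, 0.95 and 0.74 CPM in the vehicle group and 8.05, 5.91 and 5.05 CPM in the Laminaria group. The log2 fold change was 2.99 (SE 0.27, edgeR adjusted p = 0.0639), and the sham libraries, at 6.86, 7.81 and 3.96 CPM, were at or near the Laminaria level. Rc3h1 encodes Roquin-1, which promotes the decay of mRNAs of inflammatory cytokines. It had 36.3, 37.8 and 36.9 CPM in the vehicle group and 18.6, 16.0 and 16.8 CPM in the Laminaria group, a log2 fold change of -1.11 (SE 0.10, edgeR adjusted p = 0.0639). Its sham libraries had 17.5, 21.9 and 33.7 CPM and reached from the Laminaria level to just below the vehicle level. Bloc1s6, a subunit of a complex for the biogenesis of lysosome-related organelles, had 12.9, 13.5 and 11.9 CPM in the vehicle group and 30.2, 30.3 and 26.4 CPM in the Laminaria group. This gave a log2 fold change of 1.19 (SE 0.12, edgeR adjusted p = 0.0842), and all 3 sham libraries, at 27.3 to 28.4 CPM, were at the Laminaria level. With all 9 libraries in 1 fit Bloc1s6 was the single gene that passed (adjusted p = 0.0192), whereas Zfp180, Pde6d and Aurkaip1 had adjusted p values of 0.914, 0.408 and 0.178 in that fit.

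Other protein-coding genes with the smallest p among those higher in all Laminaria libraries were Fbxo33, Abl2, Heg1, Ypel3, Tbr1, Ccdc22, Larp4, Rftn1, Mtdh, Ppargc1a, Foxp1 and Bap1. Abl2, a non-receptor tyrosine kinase of the cytoskeleton, had 15.8, 15.2 and 27.0 CPM in the vehicle group and 75.2, 71.1 and 59.6 CPM in the Laminaria group. Its sham libraries split, with 93.1 CPM in sham 2 and 17.8 and 24.5 CPM in the other two. Fbxo33, a subunit of ubiquitin ligases, likewise had 52.7 CPM in sham 2 and 18.0 and 20.6 CPM in the other two, against 14.2 to 18.6 CPM in the vehicle group and 41.5 to 48.2 CPM in the Laminaria group. Ppargc1a, the coactivator PGC-1alpha of mitochondrial biogenesis, had 28.2, 30.4 and 29.0 CPM in the vehicle group and 43.8, 41.9 and 37.9 CPM in the Laminaria group, and its sham libraries were at 38.0 to 47.7 CPM. Their log2 fold changes were 1.83 for Abl2, 1.44 for Fbxo33 and 0.50 for Ppargc1a, with adjusted p values of 0.299, 0.0842 and 0.938 from edgeR.

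Among genes lower in all Laminaria libraries the same ranking gave Helz, Gh, Spata33, Umad1, Flcn, Arpc5, Rpl21, Vamp8, Cox7a1, Ltbp4, Npas3 and Rara. Helz, an RNA helicase, had 40.2, 48.2 and 46.2 CPM in the vehicle group and 23.2, 17.2 and 16.6 CPM in the Laminaria group, whereas its sham libraries, at 57.8 to 68.6 CPM, were above both. Its log2 fold change was -1.24 (edgeR adjusted p = 0.256). Vamp8, a vesicle fusion protein of secretory and endosomal membranes, had 24.1, 29.3 and 31.5 CPM in the vehicle group, 17.7 to 18.8 CPM in the Laminaria group and 8.56 to 10.6 CPM in the sham group. On the log2 scale the difference was -0.61 (edgeR adjusted p = 0.95). Arpc5, a subunit of the Arp2/3 complex that branches actin filaments, had 85.8, 45.7 and 115 CPM in the vehicle group and 25.8 to 28.6 CPM in the Laminaria group, a log2 fold change of -1.61 (edgeR adjusted p = 0.938). Gh encodes growth hormone of the pituitary. It had 72, 121 and 53 counts in vehicle 1, 2 and 3 and no counts in any Laminaria library, so that its level was at least 19.4-fold higher in the vehicle group against a floor of 11.1 counts over the Laminaria group. With a mean of 0.64 FPKM over both groups, Gh reached the threshold of 0.5 only through the vehicle libraries. In the sham group only sham 3 had counts of Gh, 59 of them, and Prl (prolactin) had 6 and 26 counts in vehicle 1 and 2, 16 in sham 3 and none in the other libraries. Pomc, another pituitary hormone gene that the hypothalamus also expresses, had 131, 93 and 83 counts in the vehicle group and 75, 97 and 134 in the Laminaria group, with overlap.

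A set of 46 gene lists of cell types and pathways, with 539 genes tested, was used to describe the rest of the comparison. By edgeR none of the 46 lists held a called gene, with 20 of their genes at an unadjusted p under 0.05 (3.71%, against 3.36% of all genes). DESeq2 called 3 of their genes, Tbr1, Foxp1 and Itgax (0.565%, against 0.289% of all genes), but on simulated data it made more false calls than edgeR. The smallest adjusted p over all genes of the lists was 0.359, for Tbr1 (edgeR). The medians of the lists ranged from -1.17 for MHC class II presentation to 0.46 for meningeal fibroblasts, against -0.002 over all genes tested. Over all genes 50.3% were below 0 and 49.7% above. Genes of a list can move together, so their number in a direction is not a number of independent results. For 27 of the 46 lists the median kept its sign whichever library was left out. As the tissue was sequenced in bulk, fewer cells of a type and less RNA per cell cannot be told apart in any of these lists.

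**Figure D3:**
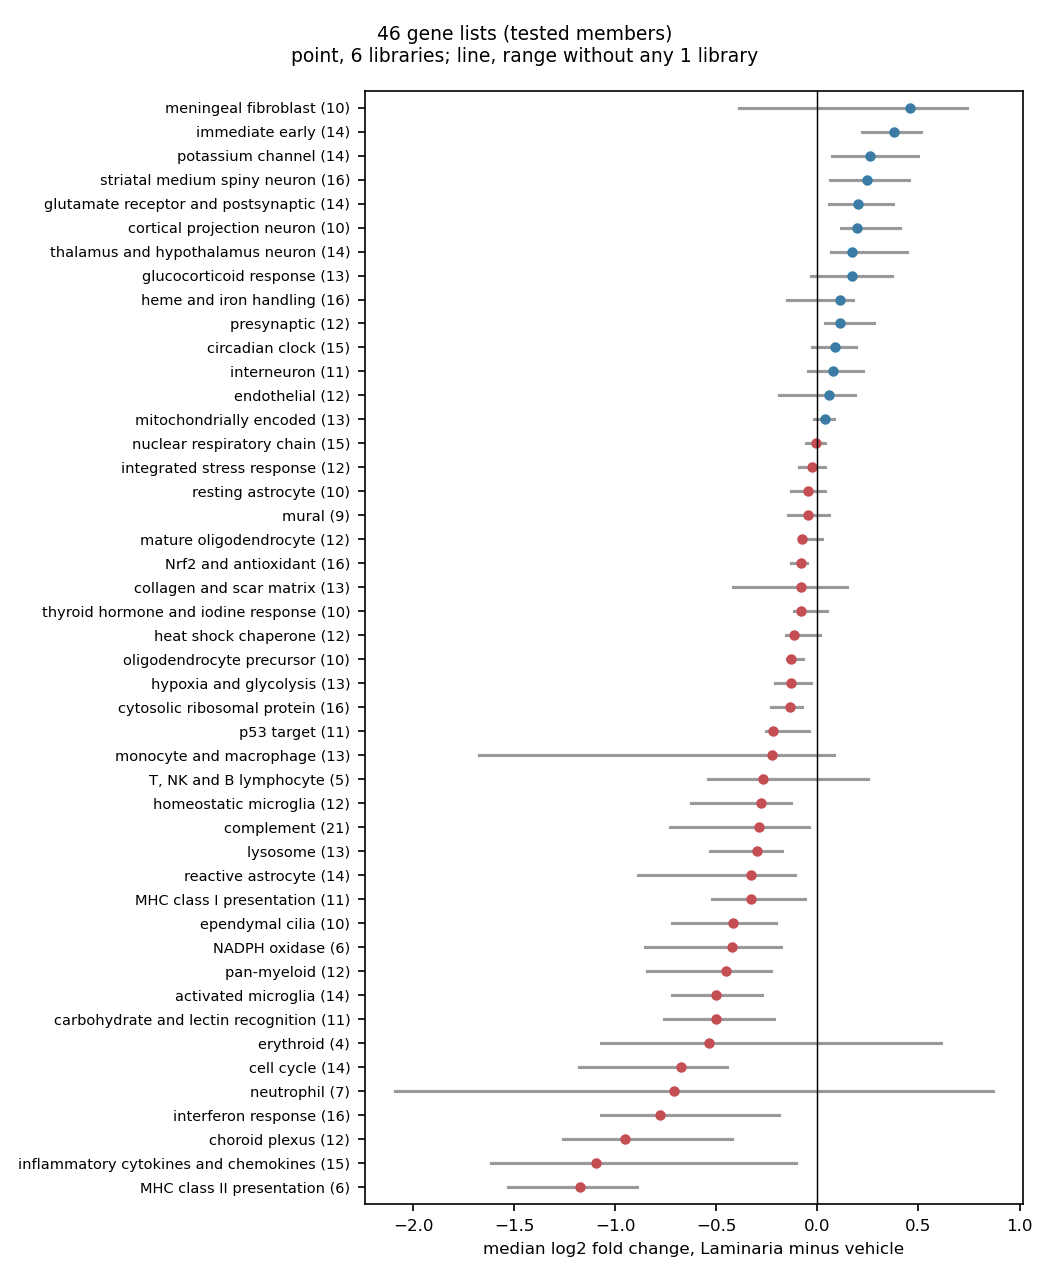
The median log2 fold change (Laminaria minus vehicle) of the tested members of 46 gene lists is shown as a point, red below 0 and blue above, and the grey line gives the lowest and highest median when any 1 of the 6 libraries is left out. The MHC class II list is lowest (-1.17, range -1.53 to -0.89), and the line of the neutrophil list reaches from -2.09 to 0.87.

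Genes of MHC class II presentation had the lowest median of all lists. Of 7 genes listed 6 were tested, all 6 had a log2 fold change below 0, against 50.3% of all genes, and 4 of the 6 were at an unadjusted p under 0.05 in the downward direction, against 1.65% of all genes. Cd74, the invariant chain that guides class II molecules to the endosome, had 32.9, 62.5 and 83.0 CPM in vehicle 1, 2 and 3 and 17.4, 9.83 and 36.6 CPM in Laminaria 1, 2 and 3. Vehicle 1 and Laminaria 3 were close to each other, and the other libraries were apart. H2-Aa, an alpha chain of the class II molecule, had 12.8, 21.0 and 31.1 CPM in the vehicle group and 6.98, 4.08 and 12.8 CPM in the Laminaria group. H2-Ab1, the beta chain that pairs with it, had 15.5, 24.2 and 23.2 CPM in the vehicle group and 8.07, 5.32 and 12.9 CPM in the Laminaria group. Groups did not overlap for H2-Ab1 and for H2-Eb1, the gene of another class II beta chain. H2-Eb1 had 9.77, 14.3 and 17.3 CPM in the vehicle group and 6.70, 3.63 and 8.95 CPM in the Laminaria group. Over all genes 4.73% were lower without overlap. Among the ICH libraries all 4 of these genes were lowest in Laminaria 2, so they moved together and do not count as independent results.

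The log2 fold changes were -1.48 for Cd74 (SE 0.53), -1.44 for H2-Aa (SE 0.48), -1.25 for H2-Ab1 (SE 0.34) and -1.10 for H2-Eb1 (SE 0.36), each with an adjusted p = 0.95 from edgeR. Sham libraries were lower than all ICH libraries for these 4 genes, with 3.37 to 7.42 CPM for Cd74 and 1.20 to 3.38 CPM for H2-Ab1. H2-DMa, which loads peptides onto class II molecules, had 12.6 to 22.1 CPM in the vehicle group and 15.7 to 17.2 CPM in the Laminaria group. Without any 1 library the median of the list was between -1.53 and -0.89. Itgax encodes CD11c, an integrin chain of dendritic cells and of activated microglia. It had 5.42, 8.03 and 8.07 CPM in the vehicle group, 1.99, 1.66 and 3.77 CPM in the Laminaria group and 0.21 to 0.51 CPM in the sham group. The log2 fold change was -1.53 (SE 0.36, edgeR adjusted p = 0.95). The summed level of the 12 pan-myeloid genes was 944, 2061 and 1842 CPM in vehicle 1, 2 and 3 and 936, 743 and 1664 CPM in Laminaria 1, 2 and 3, and its part in these values was not tested.

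**Figure D4:**
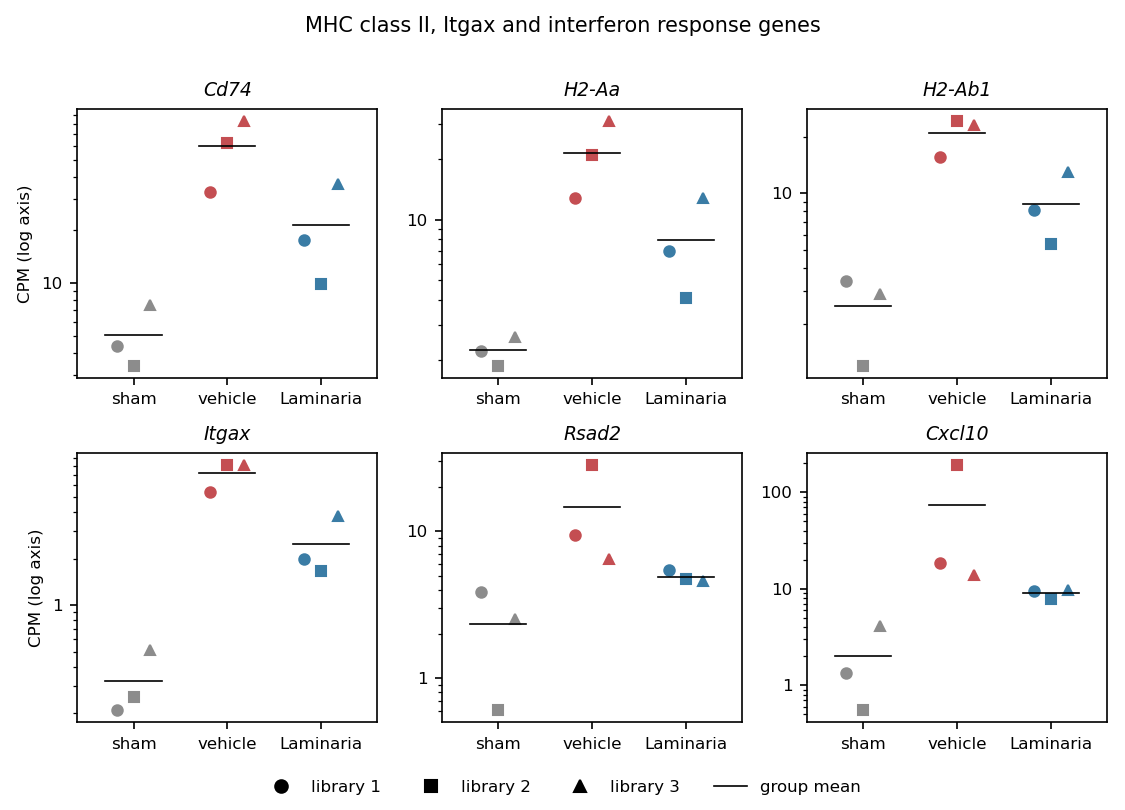
The CPM of Cd74, H2-Aa, H2-Ab1, Itgax, Rsad2 and Cxcl10 is plotted on a log axis for each sham (grey), ICH vehicle (red) and ICH Laminaria (blue) library, with a line at the group mean. The vehicle and Laminaria libraries do not overlap for H2-Ab1, Itgax, Rsad2 and Cxcl10, and for Cxcl10 vehicle 2 (192 CPM) stands far above vehicle 1 and 3 (18.4 and 14.1 CPM).

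Genes induced by interferons were lower in the Laminaria group by a median of -0.78 on the log2 scale. All 16 tested members had a log2 fold change below 0, against 50.3% of all genes. Of these members 4 were at an unadjusted p under 0.05, against 1.65% of all genes in this direction. For 3 members the groups did not overlap, against 4.73% of all genes in this direction. Many such genes carry the interferon-stimulated response element, which the factor ISGF3 binds. RefSeq promoters (GRCm38.p6, 250 bases before to 50 after the start) were searched on both strands for GAAA, any 2 bases and GAAA again. A match to this short pattern does not show that the element is present or bound. It was found in 8 of the 12 interferon genes with a promoter sequence (66.7%). A match was found in 0 of 4 MHC class II genes, 2 of 9 MHC class I genes and 3.99% of all 27025 genes with a promoter sequence. As the interferon genes were listed for being induced by interferons, their share does not bear on the difference between the groups. The stretches of 60 bases around the match are shown for the 3 genes that held it among the 4 at an unadjusted p under 0.05, with the match in capitals, read along the gene's strand, where a match that starts with TTTC lies on the opposite strand.
Cxcl10 (chr5:92349068-92349127, minus strand): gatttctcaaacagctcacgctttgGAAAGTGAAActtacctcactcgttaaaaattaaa
Rsad2 (chr12:26456538-26456597, minus strand): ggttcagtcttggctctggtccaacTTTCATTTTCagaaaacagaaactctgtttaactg
Ifit3 (chr19:34583348-34583407, plus strand): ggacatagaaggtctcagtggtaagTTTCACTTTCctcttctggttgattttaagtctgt

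Cxcl10, a chemokine that draws T cells, had 18.4, 192 and 14.1 CPM in vehicle 1, 2 and 3 and 9.54, 7.84 and 9.76 CPM in Laminaria 1, 2 and 3. Its log2 fold change was -3.04 (SE 1.03, edgeR adjusted p = 0.95), and -0.85 without vehicle 2. Rsad2, whose product viperin blocks the growth of viruses, had 9.44, 28.3 and 6.53 CPM in the vehicle group and 5.49, 4.73 and 4.58 CPM in the Laminaria group. This gave a log2 fold change of -1.57 and, without vehicle 2, -0.70. Usp18, which dampens signaling of the interferon receptor, had 9.17, 17.9 and 8.06 CPM in the vehicle group and 4.84, 5.91 and 6.87 CPM in the Laminaria group, again without overlap. Ifit3, a member of a family that binds viral RNA, had 66.7, 138 and 56.8 CPM in the vehicle group and 38.0, 32.2 and 59.4 CPM in the Laminaria group, where Laminaria 3 lay above vehicle 3. The transcription factor genes Stat2 (-0.06) and Irf7 (-0.002) were near 0 on the log2 scale. In each of these genes but Irf7, vehicle 2 was the highest library, and without it the median of the list was -0.19. Usp18, Ifit3, Stat2 and Irf7 were named after their values were seen.

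Vehicle 2 also stood apart for inflammatory cytokines and chemokines. All 15 tested genes had a log2 fold change below 0, against 50.3% of all genes. Their median was -1.10, which became -0.11 without vehicle 2. Cxcl1, which attracts neutrophils, had 0.41, 62.4 and 1.76 CPM in vehicle 1, 2 and 3 and 2.27, 0.59 and 2.06 CPM in Laminaria 1, 2 and 3. Without vehicle 2 its log2 fold change turned from -3.70 to 0.59. Cxcl2, another neutrophil chemokine, had 16.5 CPM in vehicle 2 and 0.25 to 0.71 CPM in the other ICH libraries. Il1b, encoding interleukin-1beta, had 26.7 CPM in vehicle 2, 0.66 and 1.62 CPM in vehicle 1 and 3 and 0.38 to 2.87 CPM in the Laminaria group, and its log2 fold change turned from -2.84 to 0.23 without vehicle 2. The hemoglobin share of vehicle 2 was the highest of the 9 libraries, and its part in these values was not tested. For the 11 genes of MHC class I presentation the median was -0.33, and -0.06 without vehicle 2. Psmb9, a subunit of the immunoproteasome, had 4.74, 8.08 and 7.25 CPM in the vehicle group and 5.12, 3.18 and 4.99 CPM in the Laminaria group. H2-K1, a class I heavy chain, had 66.2, 132 and 89.3 CPM in the vehicle group and 42.7, 46.5 and 101 CPM in the Laminaria group, so that its groups overlapped.

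The vehicle and Laminaria libraries overlapped for all complement genes tested except Itgax and Masp1, which encodes a protease of the lectin pathway. These 2 of the 21 genes tested were lower in the Laminaria group, and 4.73% of all genes were lower without overlap. Of 22 genes listed 21 were tested, 17 of these were below 0 and 4 above, with a median log2 fold change of -0.29 and of -0.04 without vehicle 2. C1qa, a chain of C1q, had 233, 528 and 469 CPM in vehicle 1, 2 and 3 and 253, 210 and 470 CPM in Laminaria 1, 2 and 3. Vehicle 1 thus had a level like Laminaria 1 and 2, and Laminaria 3 one like vehicle 3. The log2 fold change of C1qa was -0.39 (SE 0.39, edgeR adjusted p = 0.95), and those of C1qb and C1qc were -0.35 and -0.40. C3 had 29.6, 153 and 105 CPM in the vehicle group and 35.3, 18.4 and 113 CPM in the Laminaria group, with a log2 fold change of -0.78 (SE 0.79). Itgam, the CD11b chain of CR3, had 83.0, 108 and 85.5 CPM in the vehicle group and 79.8, 71.4 and 94.9 CPM in the Laminaria group (log2 fold change -0.16, SE 0.15). Itgb2, the CD18 chain that pairs with it, had a log2 fold change of -0.46 (SE 0.41). C5ar1, the receptor of the fragment C5a, went the other way, with 6.44, 4.16 and 13.9 CPM in the vehicle group and 10.3, 9.01 and 17.6 CPM in the Laminaria group, a log2 fold change of 0.59 (SE 0.48). These genes, other than Masp1, were higher in each ICH library than in each sham library, in which C1qa had 66.8 to 128 CPM and Itgam 26.0 to 47.3 CPM.

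Pan-myeloid genes are shared by microglia, macrophages and other myeloid cells. All 12 of them were below 0, against 50.3% of all genes, and the groups overlapped for each. Their median was -0.45 and lay between -0.84 and -0.23 without any 1 library. Lyz2 (lysozyme), which had the lowest log2 fold change of this list (-0.87), had 197, 535 and 448 CPM in the vehicle group and 170, 101 and 372 CPM in the Laminaria group. Aif1, the gene of Iba-1, had 11.9, 26.9 and 25.8 CPM in the vehicle group and 9.56, 10.7 and 19.0 CPM in the Laminaria group. The 14 genes of activated microglia were all below 0, against 50.3% of all genes, with a median of -0.50. Of these Gpnmb, a glycoprotein of lipid-laden phagocytes, had 99.3, 259 and 197 CPM in the vehicle group and 133, 63.5 and 167 CPM in the Laminaria group. Clec7a encodes Dectin-1, the receptor for beta-glucans of fungi and plants, and had 11.3, 16.5 and 15.3 CPM in the vehicle group, 10.4, 7.60 and 12.2 CPM in the Laminaria group and 0 to 1.05 CPM in the sham group. In a list of 13 genes for recognition of carbohydrates, of which 11 were tested, the median was -0.50 and 10 genes were below 0. Tlr2, a receptor for bacterial lipoproteins, had 14.8, 65.6 and 26.2 CPM in the vehicle group and 13.6, 9.34 and 30.5 CPM in the Laminaria group.

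The medians of homeostatic microglia (-0.28), lysosome (-0.30) and NADPH oxidase genes (-0.42) were below 0 whichever library was left out, and no member passed the test. Among the 12 homeostatic genes Fcrls had the lowest log2 fold change (-0.70), with 111, 310 and 276 CPM in the vehicle group and 125, 104 and 197 CPM in the Laminaria group. Cx3cr1, the fractalkine receptor, had 171 CPM in Laminaria 3 against 7.82 to 25.8 CPM in the other ICH libraries, and without Laminaria 3 its log2 fold change turned from 1.76 to -0.86. Olfml3 was highest in Laminaria 1 and 2, at 102 and 94.5 CPM, against 25.4 to 60.2 CPM in the other ICH libraries. For 13 tested genes of infiltrating monocytes and macrophages the median was -0.23, and it was between -1.68 and 0.08 without any 1 library. Arg1, an enzyme of alternatively activated macrophages, had 6.46, 106 and 57.6 CPM in the vehicle group and 5.82, 3.54 and 92.3 CPM in the Laminaria group. It was thus high in vehicle 2, vehicle 3 and Laminaria 3 and low in the other ICH libraries. Of 12 neutrophil genes 7 were tested, and the defining markers Ly6g, Mpo, Elane, Ngp and Camp were at 0 to 0.22 CPM in every library. S100a8, part of calprotectin, had 0.41, 10.2 and 1.23 CPM in the vehicle group and 1.19, 0.34 and 4.26 CPM in the Laminaria group. The T cell genes Cd3e, Cd3d, Cd3g, Cd8a and Cd8b1 were at 0 to 0.87 CPM in all libraries, whereas Trac and Trbc2, of the T cell receptor, reached 2.89 and 2.57 CPM. Cd4 had 26.0 to 75.3 CPM in the ICH libraries and 61.1 to 78.9 CPM in the sham libraries, so its level did not follow that of the Cd3 genes.

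Genes of heme and iron handling did not move in one direction, with 10 of 16 tested genes above 0 and a median of 0.11. Cd163, the receptor through which macrophages take up hemoglobin bound to haptoglobin, had 1.98, 2.84 and 3.67 CPM in vehicle 1, 2 and 3 and 4.74, 3.97 and 6.34 CPM in Laminaria 1, 2 and 3. The groups did not overlap, as was so for 4.27% of all genes in this direction, and the sham libraries, at 2.95 to 4.03 CPM, reached into both groups. On the log2 scale the difference was 0.83 (SE 0.30, edgeR adjusted p = 0.95), and 0.63 to 1.06 without any 1 library. Hmox1 encodes heme oxygenase-1 (HO-1), which opens the heme ring. It had 644, 1100.0 and 818 CPM in the vehicle group, 739, 521 and 1053 CPM in the Laminaria group and 7.87, 32.2 and 123 CPM in the sham group, and the ICH groups overlapped (log2 fold change -0.14, SE 0.29). Hpx, encoding the heme carrier hemopexin, had 9.45 CPM in Laminaria 1 and 0.39 to 0.75 CPM in the other ICH libraries, and without Laminaria 1 its log2 fold change turned from 2.80 to 0.31. Ftl1, the light chain of ferritin, had 1063, 1724 and 1714 CPM in the vehicle group and 1222, 850 and 1311 CPM in the Laminaria group (log2 fold change -0.41, SE 0.24). Cp (ceruloplasmin), which oxidizes iron for export, had 25.5, 55.4 and 32.8 CPM in the vehicle group and 37.1, 29.8 and 75.5 CPM in the Laminaria group. The hemoglobin gene Hba-a1 had 9.51, 41.3 and 8.95 CPM in the vehicle group and 19.9, 5.66 and 9.49 CPM in the Laminaria group. The 4 hemoglobin genes tested had a median of -0.54, which turned to 0.61 without vehicle 2, and the near-identical copies Hba-a1 and Hba-a2 may share reads.

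The medians of the neuronal lists lay above 0, between 0.08 for interneurons and 0.26 for potassium channels. The interneuron median was -0.05 without Laminaria 1, -0.02 without vehicle 2 and -0.01 without Laminaria 2. Of 10 tested genes of cortical projection neurons all 10 were above 0, against 49.7% of all genes, with a median of 0.20, and for 3 of them the groups did not overlap, against 4.27% of all genes in this direction. Tbr1, a transcription factor of deep cortical layers, had 3.61, 3.64 and 3.74 CPM in vehicle 1, 2 and 3 and 8.86, 8.70 and 7.20 CPM in Laminaria 1, 2 and 3. Its log2 fold change was 1.18 (SE 0.17, edgeR adjusted p = 0.359). Neurod6, a transcription factor of cortical excitatory neurons, had 0.85, 0.23 and 1.54 CPM in the vehicle group and 3.22, 3.88 and 3.23 CPM in the Laminaria group, a log2 fold change of 1.99 (SE 0.62). The sham libraries differed among themselves, with 13.8 CPM of Tbr1 and 7.51 CPM of Neurod6 in sham 2, against 5.61 CPM of Tbr1 and 1.10 CPM of Neurod6 in sham 3. Slc17a7, the vesicular glutamate transporter of cortical neurons, had 112 to 143 CPM in the vehicle group and 159 and 162 CPM in Laminaria 1 and 2, but its lowest level of all 6 ICH libraries in Laminaria 3, so that its groups overlapped. How much cortex each sample held was not tested.

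Among 16 genes of striatal medium spiny neurons 15 were above 0, with a median of 0.25 that lay between 0.06 and 0.45 without any 1 library. Foxp1, a transcription factor of these neurons, had 34.5, 24.8 and 36.7 CPM in the vehicle group and 72.5, 51.5 and 78.3 CPM in the Laminaria group. The log2 fold change was 1.08 (SE 0.21, edgeR adjusted p = 0.938). Drd1 had 72.6, 61.9 and 108 CPM in the vehicle group and 144, 129 and 69.9 CPM in the Laminaria group, in which Laminaria 3 fell within the range of the vehicle libraries. Rgs9, a brake on dopamine receptor signaling, had 197, 114 and 234 CPM in the vehicle group and 359, 272 and 125 CPM in the Laminaria group. Pde10a, the phosphodiesterase of these neurons, was the single gene of the list below 0 (log2 fold change -0.73, SE 0.30), with 383, 431 and 555 CPM in the vehicle group and 400.2, 241 and 183 CPM in the Laminaria group. Laminaria 3 thus had the lowest or next to lowest level of the ICH libraries for Drd1, Rgs9 and Pde10a alike.

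All 14 glutamate receptor and postsynaptic genes were above 0, against 49.7% of all genes. Their median was 0.20, and 0.06 without Laminaria 1, and up to 5 of these genes were below 0 without 1 library. Gria2, the AMPA receptor subunit that limits calcium entry, had 175, 195 and 159 CPM in the vehicle group and 263, 253 and 201 CPM in the Laminaria group, without overlap. This gave a log2 fold change of 0.44 (SE 0.14, edgeR adjusted p = 0.95). Gria3, another AMPA receptor subunit, had 35.5, 32.9 and 41.7 CPM in the vehicle group and 77.2, 44.3 and 34.3 CPM in the Laminaria group. Of 14 potassium channel genes 13 were above 0, with a median of 0.26 that was 0.07 without Laminaria 1. Kcna2, a channel of axons, had 9.79 CPM in Laminaria 3 and 50.1 to 255 CPM in the other ICH libraries. Of 14 immediate early genes, which neurons switch on with activity, 11 were above 0, with a median of 0.38. Nr4a1, which had the highest log2 fold change of that list (0.96, SE 0.54), had 59.4, 21.0 and 36.6 CPM in the vehicle group and 107, 89.7 and 30.7 CPM in the Laminaria group. Laminaria 3 was again within the range of the vehicle libraries.

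**Figure D5:**
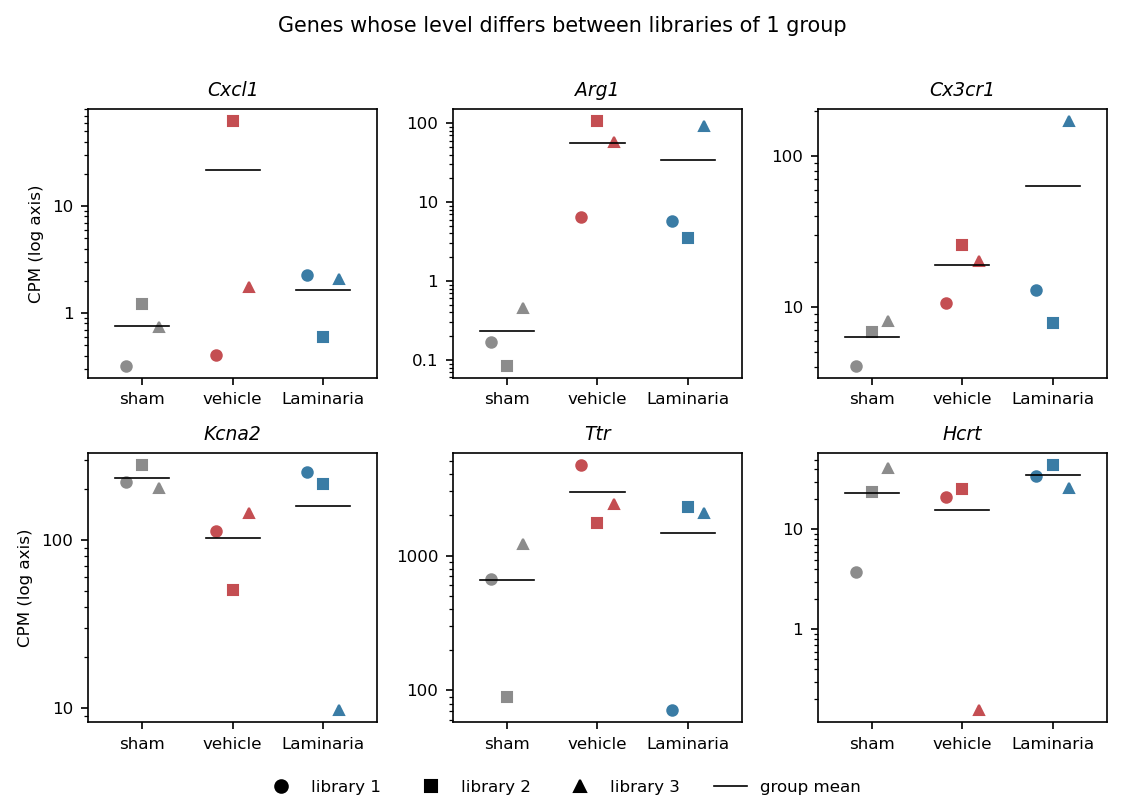
The CPM of Cxcl1, Arg1, Cx3cr1, Kcna2, Ttr and Hcrt is plotted on a log axis for each sham (grey), ICH vehicle (red) and ICH Laminaria (blue) library, with a line at the group mean. Cxcl1 is high in vehicle 2 alone (62.4 CPM), Cx3cr1 in Laminaria 3 alone (171 CPM), and Hcrt is low in vehicle 3 alone among the ICH libraries (0.16 CPM).

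Genes of the choroid plexus, which makes cerebrospinal fluid in the ventricles, differed widely between libraries. Of 12 genes 11 were below 0, with a median of -0.95 that was -0.43 without Laminaria 1 and -0.48 without vehicle 1. Ttr (transthyretin) had 4680, 1757 and 2403 CPM in vehicle 1, 2 and 3, 72.1, 2289 and 2085 CPM in Laminaria 1, 2 and 3, and 672, 89.8 and 1223 CPM in sham 1, 2 and 3. Laminaria 1 and sham 2 thus had the lowest levels of the 9 libraries. Sostdc1, an inhibitor of BMP and Wnt signaling, had 25.1, 6.40 and 18.1 CPM in the vehicle group and 1.02, 8.14 and 3.92 CPM in the Laminaria group (log2 fold change -1.91, SE 0.79). A pair of hypothalamic neuropeptides was low in vehicle 3. Hcrt (orexin) had 0.16 CPM in vehicle 3 and 21.1 to 43.9 CPM in the other ICH libraries, and Pmch (melanin-concentrating hormone) had 0.46 CPM in vehicle 3 and 74.3 to 130 CPM in the others. Avp (vasopressin) had 56.5 CPM in Laminaria 3 and 0.91 to 11.6 CPM in the other ICH libraries. Genes of meningeal fibroblasts had a median of 0.46, which turned to -0.39 without Laminaria 3. Of these Ptgds, the prostaglandin D2 synthase of the meninges, had 1442 CPM in Laminaria 3 and 592 to 703 CPM in the other ICH libraries. The part of tissue from outside the basal ganglia in these differences was not tested.

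Astrocyte genes other than Cxcl10, which belongs to this list too, overlapped between the groups. For 14 reactive astrocyte genes the median was -0.33, with 11 genes below 0. Gfap, the intermediate filament of reactive astrocytes, had 1950.0, 4354 and 4288 CPM in the vehicle group and 2333, 1678 and 3980.0 CPM in the Laminaria group. Steap4, a metalloreductase, had 99.2 CPM in vehicle 2 and 4.63 to 19.1 CPM in the other ICH libraries. Aqp4, the water channel of astrocyte endfeet, had 272, 434 and 421 CPM in the vehicle group and 223, 219 and 344 CPM in the Laminaria group, a log2 fold change of -0.51 (SE 0.24). In the oligodendrocyte lineage Olig2, a transcription factor, had 64.8, 67.6 and 70.3 CPM in the vehicle group and 61.7, 56.0 and 57.8 CPM in the Laminaria group, without overlap, and its log2 fold change was -0.20 (SE 0.08). Medians of mature oligodendrocyte (-0.07), endothelial (0.06) and mural genes (-0.05) were near that of all genes. Itm2a, expressed by endothelial cells, had 71.1, 66.9 and 87.7 CPM in the vehicle group and 39.3, 52.1 and 65.0 CPM in the Laminaria group, a log2 fold change of -0.52 (SE 0.20).

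The 14 cell cycle genes were all below 0, against 50.3% of all genes. Their median was -0.68 and lay between -1.18 and -0.45 without any 1 library. Top2a, a topoisomerase of dividing cells, had 16.7, 59.8 and 72.7 CPM in the vehicle group and 22.0, 14.4 and 40.7 CPM in the Laminaria group, and Ccnb1, the mitotic cyclin, had 4.16, 18.4 and 20.4 CPM and 6.71, 4.13 and 10.2 CPM. Vehicle 1 was at the level of Laminaria 1 and 2 for both genes, so that the groups overlapped. Lists of the heat shock, integrated stress and antioxidant responses, of the respiratory chain, of clock genes and of cytosolic ribosomal proteins had medians between -0.13 and 0.09. Prdx1, a peroxide-reducing enzyme, had 292, 349 and 367 CPM in the vehicle group and 262, 240 and 297 CPM in the Laminaria group (log2 fold change -0.33, SE 0.12). The glucocorticoid response list had a median of 0.17, and Plin4, a lipid droplet protein of this list that was named after its values were seen, had 6.05, 84.4 and 13.5 CPM in the vehicle group and 48.8, 21.0 and 53.5 CPM in the Laminaria group. For thyroid hormone and iodine genes, listed since brown seaweeds are rich in iodine, the median was -0.08. Among them the receptor gene Thrb had 4.25, 15.4 and 2.77 CPM in the vehicle group and 18.3, 11.3 and 19.2 CPM in the Laminaria group, a log2 fold change of 1.13 (SE 0.63).

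The genes with the widest range within the Laminaria group were led by protocadherin genes of the gamma cluster on chromosome 18. Pcdhgb4 had 569 CPM in Laminaria 1, Pcdhgb8 had 491 CPM in Laminaria 2 and Pcdhga2 had 488 CPM in Laminaria 3, each against at most 26.0 CPM in the other ICH libraries. In vehicle 2 Pcdhga9 had 628 CPM, against 14.6 to 37.6 CPM in the other ICH libraries. The genes of this cluster share their last exons, and reads from these cannot be assigned to 1 gene. Summed over 22 genes the cluster had 369, 995 and 499.9 CPM in the vehicle group and 962, 912 and 839 CPM in the Laminaria group. The highest single gene took 18.3% to 63.0% of the sum, and it was a different gene in each Laminaria library. Gdf1, a growth factor of the TGF-beta family, had 56.8 to 59.2 CPM in vehicle 1, vehicle 2 and Laminaria 3 and 0.19 to 0.22 CPM in the other ICH libraries, and the ribosomal protein gene Rpl29 had 1.92 CPM in vehicle 3, 10.5 CPM in Laminaria 2 and 53.3 to 96.6 CPM in the other ICH libraries. Levels that stood at either of a pair of values across libraries, as for Gdf1, were also seen between sham libraries, where Gdf1 had 0.13 CPM in sham 1 and 50.4 and 60.4 CPM in sham 2 and 3.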

How the data were processed

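RNA of 6 ICH libraries and 3 sham libraries was analysed, with groups, replicates and days taken from the sample labels. In 1 table deposited by the authors, each gene has a count (a whole number) and an FPKM value per library. The submitters' processing notes name cutadapt 1.9, FastQC 0.10.1, HISAT2 2.0.4, StringTie 1.3.4 and the rat build Rnor_6.0, whereas identifiers and coordinates in the table match mouse Ensembl genes on GRCm38. How reads were counted, with which annotation release and strand setting, is not given in the sources used here. Reads of paralogs and of overlapping genes may therefore be shared. The low counts cluster with a period of 3.67 to 3.75, so totals may exceed the number of sequenced fragments, which could not be checked. As the floor of a gene without counts, 3 such steps (11.1 counts over a group) were taken, for counting error only. The deposited FPKM of 0.0001 at a count of 0 was set to 0.

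Genes averaging 0.5 FPKM or more in the 6 ICH libraries were compared in edgeR 4.0.16 by its quasi-likelihood test (scaling by TMM, no covariate, Benjamini-Hochberg adjusted p under 0.05) in R 4.3.3, and standard errors were taken from the F statistic. The method was tested on simulated data first. CPM values were scaled over all 9 libraries. Alternatives were limma 3.58.1, DESeq2 1.42.0, other scalings, filters and gene sets, 1 fit of all 9 libraries, a block for the replicate number, and leaving out each library. The comparison and the 46 gene lists were chosen with earlier results of these data known. Of 581 listed genes in the table, 539 were tested. Named genes were the 15 highest and 15 lowest (called genes, then the smallest p among protein-coding genes whose groups did not overlap, with 3 and 8 predicted genes or pseudogenes passed over), 4 members of each list described with the largest change, complement and heme genes of the study, the 10 genes with the widest range within each group, and any cell type marker, with exceptions marked. Protein and behavioural experiments were not analysed here.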

Additional observations from a re-analysis of the deposited data

How the results depend on the processing

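The counts of 1 gene higher and 2 lower were the same with limma on log2(FPKM + 1) or log2(FPKM + 0.1), with DESeq2's size factors, after quantile normalization, at a mean FPKM of at least 1, on counts divided by their step, and without mitochondrial, rRNA and pseudogenes. DESeq2 called 23 genes higher and 25 lower, together 0.289% of the genes it tested. All were without overlap between the groups, with Zfp180, Pde6d and Aurkaip1 among them. On simulated data DESeq2 made more true calls but also more false calls than edgeR. Those data lacked the steps of the deposited counts, so how many of DESeq2's further calls are false is not known. With library totals, all genes with any count, or edgeR's filterByExpr, 1 gene was lower (Pde6d) and Aurkaip1 was lost. With all 9 libraries in 1 fit, Bloc1s6 alone was higher and 0 genes were lower, with 680 genes at an unadjusted p under 0.05.

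Without any 1 library, 0 to 1 gene was higher and 0 genes were lower by edgeR. No gene passed without vehicle 1, 2 or 3 or Laminaria 1 or 2 (at an unadjusted p under 0.05 there were 1117, 423, 372, 357 and 447), and Zfp180 alone passed without Laminaria 3 (1635 genes). The count of genes without overlap was 1498, 2391 over all genes with any count, and 2403 to 5063 without 1 library, where fewer libraries overlap less often by construction. Of 221 genes named or among the leading genes of a list, 178 kept their direction without any 1 library, and 23 changed it without vehicle 2. Many of these genes were chosen for groups without overlap or for a large change. That choice favours a kept direction, so the count does not describe all genes.

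The replicate number as a block left 0 genes higher and 0 lower (538 at an unadjusted p under 0.05, smallest adjusted p 0.527 by edgeR). The deviations of same-numbered libraries from their group means correlated at 0.079, -0.264 and 0.086. Those of differently numbered libraries ran from -0.322 to 0.323, so these values cannot decide whether same-numbered libraries share more than a number.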
